A study of Mus musculus with 15 samples.

Results

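The Hox clusters HoxA, HoxB, HoxC and HoxD were examined in 3 deposited peak lists from mouse embryonic fibroblasts that express EZHIP, a protein inhibitor of the H3K27 methyltransferase complex PRC2. All intervals overlapping 4 fixed windows of build mm9 were taken: chromosome 6 from 52050001 to 52300000 for HoxA, chromosome 11 from 96000001 to 96260000 for HoxB, chromosome 15 from 102700001 to 102900000 for HoxC and chromosome 2 from 74450001 to 74640000 for HoxD. They held 25 of the 2466 intervals in the lists, made up of 16 of 902 EZH2 intervals, 2 of 438 FLAG intervals and 7 of 1126 H3K27me3 intervals. Between them the clusters carry 38 listed Hox genes, 10 each in HoxA and HoxB and 9 each in HoxC and HoxD. Gene positions of build mm9 were not used here, so no interval is assigned to a single gene. Cluster names given with intervals stand for these windows, which also contain sequence outside the clusters. Gene order in a RefSeq table of build GRCm38.p6 places the clusters on the same chromosomes and gives the direction of each window.

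The series profiled EZH2, FLAG and H3K27me3 by chromatin immunoprecipitation and sequencing in 15 libraries, 1 for each of 3 antibodies in 5 conditions. The 3 libraries with lists are titled EEDflox_wtORF, that is, EED-floxed fibroblasts transduced with a lentivirus for wild-type EZHIP, with no drug treatment named, and FLAG is taken here to mark EZHIP, which the design text lists among the profiled proteins. The other 12 libraries (wild-type EZHIP with DMSO or tazemetostat, EED-null cells with wild-type EZHIP, grown from a single clone, and EED-floxed cells with EZHIP M406E) were not analysed here. There were no replicates and no list from cells without EZHIP, so every statement describes these 3 lists and no effect of EZHIP was measured. The H3K27me3 list is named as residual H3K27me3, so stretches without an interval are not read as the Hox pattern of these fibroblasts. The lists give the bounds of each interval without a score or a depth. Therefore no test between groups was possible, and the cell type could not be checked against marker genes. Intervals in brackets are exact Clopper-Pearson 95% limits, which cover counting error only and treat intervals that share a cluster as independent.

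Hox genes encode homeodomain transcription factors that set position along the body axis, and they lie in 4 clusters in the order in which they are used from head to tail. Genes with low numbers act in anterior tissue and genes with high numbers, up to group 13, act in posterior tissue, limbs and genitalia. PRC2, whose catalytic subunit is EZH2, places H3K27me3 over Hox genes that a cell does not use, and fibroblasts keep a Hox pattern that reflects the part of the body they came from. PRC2 in mammals is found mostly at CpG-rich promoters.

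Promoters of the listed genes at the ends of the clusters are shown, with none available for the posterior end of HoxB or HoxC. They are given as the 250 bases before the gene start on the strand of the gene, from RefSeq, build GRCm38.p6, with each CG in capitals (CG reads the same on both strands). Of the 38 genes 22 had a sequence in the table, and of the end genes these 6 did.
Hoxa13: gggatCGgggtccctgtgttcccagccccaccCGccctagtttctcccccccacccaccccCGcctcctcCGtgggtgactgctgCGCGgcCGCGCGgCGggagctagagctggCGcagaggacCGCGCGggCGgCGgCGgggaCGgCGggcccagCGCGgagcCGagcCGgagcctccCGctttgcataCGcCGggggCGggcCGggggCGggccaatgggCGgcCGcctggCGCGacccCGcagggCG
Hoxd13: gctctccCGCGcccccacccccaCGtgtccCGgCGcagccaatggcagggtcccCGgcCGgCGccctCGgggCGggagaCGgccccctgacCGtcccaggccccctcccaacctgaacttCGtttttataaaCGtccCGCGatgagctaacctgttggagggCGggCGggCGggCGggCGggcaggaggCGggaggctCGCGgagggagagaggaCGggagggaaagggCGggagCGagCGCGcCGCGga
Hoxa2: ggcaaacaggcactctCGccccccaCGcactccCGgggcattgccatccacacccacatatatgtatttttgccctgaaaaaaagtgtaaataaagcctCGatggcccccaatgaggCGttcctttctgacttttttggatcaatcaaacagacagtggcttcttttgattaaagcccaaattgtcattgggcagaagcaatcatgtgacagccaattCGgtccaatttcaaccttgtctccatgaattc
Hoxb1: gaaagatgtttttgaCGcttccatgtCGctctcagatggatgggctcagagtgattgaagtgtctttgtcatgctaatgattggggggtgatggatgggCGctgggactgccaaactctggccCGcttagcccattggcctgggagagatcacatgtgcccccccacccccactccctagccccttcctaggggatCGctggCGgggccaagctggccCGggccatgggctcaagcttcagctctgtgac
Hoxc4: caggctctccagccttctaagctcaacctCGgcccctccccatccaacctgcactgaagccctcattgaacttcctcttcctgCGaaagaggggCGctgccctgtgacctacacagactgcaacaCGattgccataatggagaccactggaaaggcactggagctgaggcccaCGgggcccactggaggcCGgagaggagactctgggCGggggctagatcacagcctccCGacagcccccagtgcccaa
Hoxd1: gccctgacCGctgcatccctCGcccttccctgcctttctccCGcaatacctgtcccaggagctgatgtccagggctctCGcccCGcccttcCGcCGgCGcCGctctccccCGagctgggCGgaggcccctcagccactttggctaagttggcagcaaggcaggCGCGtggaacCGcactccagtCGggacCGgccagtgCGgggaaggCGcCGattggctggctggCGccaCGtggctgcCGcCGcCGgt

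Hoxa13 and Hoxd13, which pattern the digits and the genital tubercle, had CG-dense promoters, with 35 and 31 CG. Of the anterior end genes, Hoxa2, which patterns the branchial arches, had 6, Hoxb1, a hindbrain gene, had 7, Hoxc4 had 8 and Hoxd1 had 24. The median over 27025 genes of the table was 6, and 91.7% of all promoters of this length held at least 1 CG. In HoxD all 9 genes had a sequence, with a median of 13 CG in the 5 genes of groups 9 to 13 and of 9 in the 4 genes of lower groups. In HoxA 9 of 10 had one, with a median of 10 in the 4 genes of groups 9 to 13 and of 18 in 5 genes of lower groups, so the clusters did not share an order from posterior to anterior. These medians use the start listed first in the table for Hoxd11 (2 CG) and Hoxa10 (7 CG). With their other start, which has 20 CG in both genes, the posterior medians were 20 in HoxD and 16.5 in HoxA, and the order in each cluster was as before. With sequences for 30% of HoxB and 11.1% of HoxC genes, the same comparison is void there. Whether an interval lies over any of these promoters was not determined, as the builds differ.

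EZH2 and H3K27me3 were present in all 4 clusters, and the amount differed between them. HoxC had the most, with 59194 bp of EZH2 in 6 intervals and 66799 bp of H3K27me3 in 1 interval, or 29.6% and 33.4% of its window. HoxD followed for EZH2 with 44597 bp in 3 intervals (23.5% of the window), beside 51599 bp of H3K27me3 in 1 interval (27.2%). HoxA held 25596 bp of EZH2 in 4 intervals (10.2%) and 49198 bp of H3K27me3 in 2 intervals (19.7%). HoxB held the least, with 18997 bp of EZH2 in 3 intervals (7.31%) and 41797 bp of H3K27me3 in 3 intervals (16.1%). EZH2 length thus ranged more widely over the clusters than H3K27me3 length, and the length of H3K27me3 for each bp of EZH2 was 1.13 in HoxC, 1.16 in HoxD, 1.92 in HoxA and 2.20 in HoxB. FLAG covered 5999 bp in HoxA and 4999 bp in HoxD, and no FLAG interval was listed in HoxB or HoxC.

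**Figure D1:**
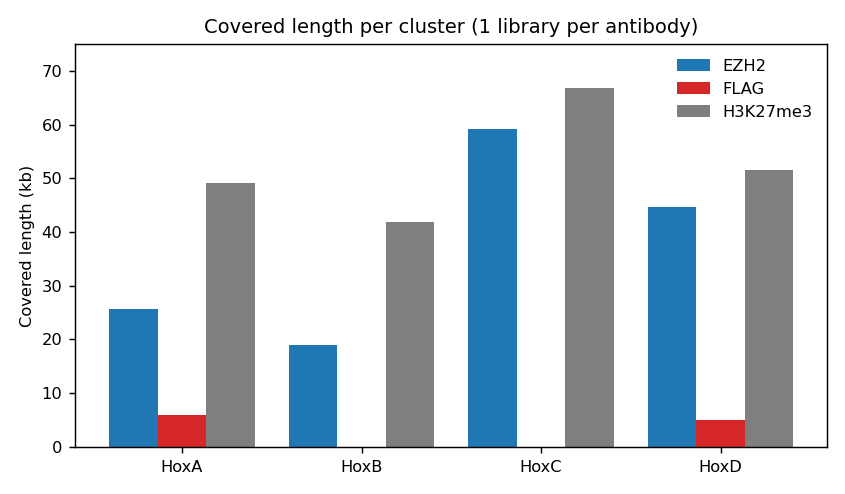
Covered length in kb (y axis, from 0) of EZH2, FLAG and H3K27me3 in the window of each cluster (x axis), 1 bar per list and 1 library per list, so there are no error bars. HoxC has the longest EZH2 and H3K27me3 bars, and only HoxA and HoxD have a FLAG bar.

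To place these lengths, the chromosomes were divided into windows of the same size as each cluster's, leaving out windows that touch a Hox window. Of the 809 windows of 200 kb with any EZH2, 0 held as much EZH2 as HoxC, and the median was 5399 bp. For HoxD, 3 of 807 windows (0.372%) held at least as much EZH2. For HoxA the share was 3.07% of 782 windows and for HoxB 7.67% of 782. For H3K27me3 the shares were 1.56% for HoxC, 2.23% for HoxD, 2.56% for HoxA and 3.05% for HoxB. For FLAG the windows with at least as much made up 31.1% of the occupied windows for HoxA and 41.8% for HoxD. The clusters therefore lay in the upper tail of windows for both PRC2 measures, whereas FLAG in HoxA and HoxD was near the middle of occupied windows. The comparison windows lay on a fixed grid from the start of each chromosome and can split a locus, whereas each Hox window was placed around its cluster. This can raise the rank of the Hox windows. No test was made of these ranks.

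In every cluster the intervals lay towards the side of the high-numbered genes, and the anterior side was empty in all 3 lists. The last interval before the anterior edge of the window was followed by 133.8 kb without any interval in HoxA, 122 kb in HoxB, 92.6 kb in HoxC and 102 kb in HoxD. These stretches make up between 46.3% (HoxC) and 53.9% (HoxD) of the windows. The posterior edge was empty over a shorter length. The first interval began 25.4 kb from it in HoxA, 30.4 kb in HoxB, 39.6 kb in HoxC and 35.6 kb in HoxD. With each window divided into 3 equal parts, the most anterior part held 0 bp of EZH2, FLAG and H3K27me3 in all 4 clusters. EZH2 covered 28.2% of the posterior parts together and 21.2% of the middle parts. H3K27me3 covered 35.1% and 34.7% of them, and all FLAG was in the posterior parts. The clusters differed in this. EZH2 covered 21.9% of the posterior part and 0% of the middle part in HoxB, 21.3% and 9.44% in HoxA, and 36.8% and 33.6% in HoxD, whereas in HoxC it covered 37.0% and 51.8%. H3K27me3 covered less of the posterior than of the middle part in HoxA (19.7% and 39.4%) and HoxC (39.4% and 60.8%), and more in HoxB (40.4% and 7.84%) and HoxD (43.8% and 37.7%). The windows also contain sequence outside the clusters, of a length not determined here, so the position within a window is not a position within a gene series.

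**Figure D2:**
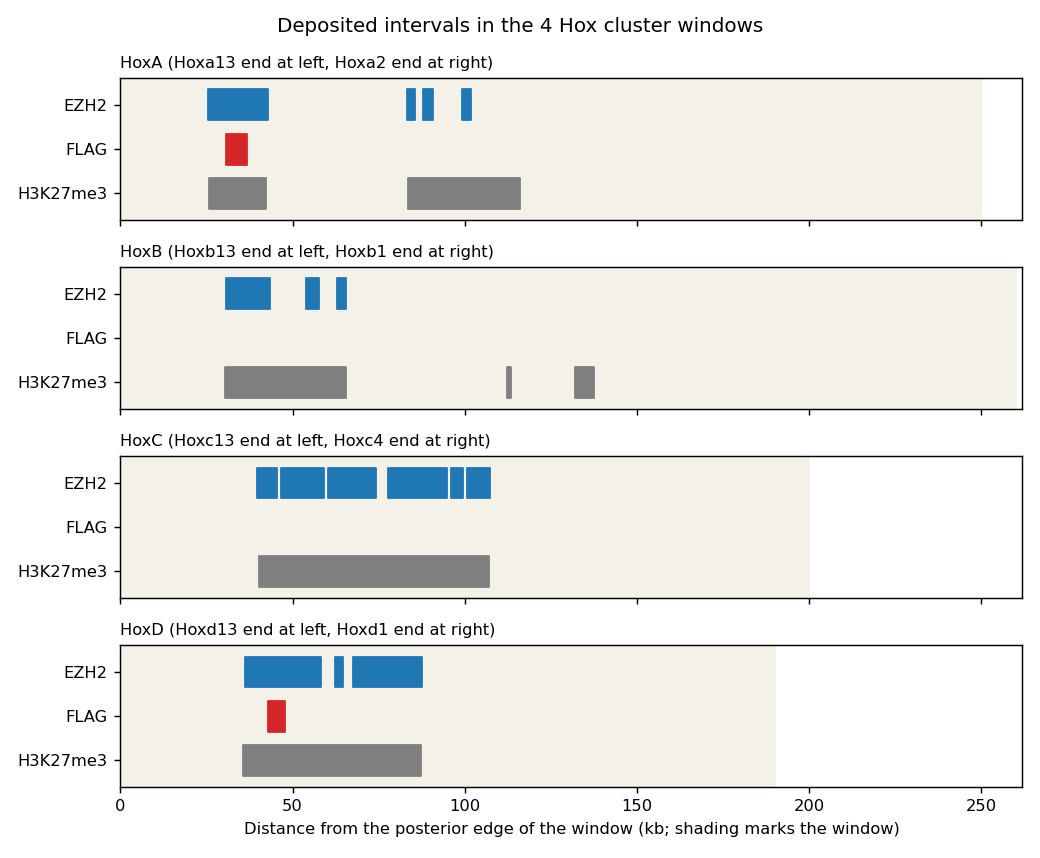
Every deposited interval in the 4 windows, drawn to scale against the distance in kb from the posterior edge of the window (x axis), with 1 row per list and 1 panel per cluster. The intervals lie towards the left of each window, the side of the group 13 gene, with an empty stretch on both sides. The last ends at 138 kb in HoxB, past the middle of its window.

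HoxC, which runs from Hoxc13 at the posterior end to Hoxc4, carried an unbroken H3K27me3 interval at chromosome 15 from 102740401 to 102807199, the 12th widest of 1126. From the posterior side, its EZH2 intervals spanned 102739601 to 102745399 (5799 bp), 102746601 to 102759199 (12599 bp), 102760401 to 102774199 (13799 bp), 102777801 to 102794799 (16999 bp), 102796001 to 102799399 (3399 bp) and 102800801 to 102807399 (6599 bp). The gaps between them were 1201, 1201, 3601, 1201 and 1401 bp, all under H3K27me3. The narrowest gap in the whole EZH2 list was 1201 bp, and 4 of the 8 EZH2 gaps of at most 1500 bp in that list lay in HoxC. EZH2 in this cluster was thus nearly continuous, and 87.1% of the H3K27me3 length lay under it.

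HoxD, from Hoxd13 to Hoxd1, carried H3K27me3 at chromosome 2 from 74485601 to 74537199 (51599 bp), which was 85.7% under EZH2. Its EZH2 intervals spanned 74486201 to 74508399 (22199 bp), 74512201 to 74514599 (2399 bp) and 74517601 to 74537599 (19999 bp), separated by 3801 and 3001 bp. The 2 wide ones ranked 26th and 41st of 902 by width, and the one between them was near the narrowest EZH2 width of 2199 bp. HoxD therefore resembled HoxC in the share of H3K27me3 under EZH2, over a shorter stretch. The gene next to Hoxd13 outside the cluster is Evx2, a homeobox gene.

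In the window of HoxA, whose genes run from Hoxa13 to Hoxa2, the intervals lay in separate stretches. The posterior one had EZH2 at chromosome 6 from 52257001 to 52274599 (17599 bp) and H3K27me3 from 52257801 to 52274199 (16399 bp), all of it under EZH2. A gap of 41201 bp in H3K27me3, and of 40201 bp in EZH2, followed. The next stretch had H3K27me3 from 52183801 to 52216599 (32799 bp) over 3 narrow EZH2 intervals, 52214401 to 52216799 (2399 bp), 52209201 to 52212199 (2999 bp) and 52198201 to 52200799 (2599 bp). EZH2 lay under 23.8% of that H3K27me3 interval, a lower share than in any other H3K27me3 interval with EZH2 in the 4 clusters. Evx1, a homeobox gene, is the neighbour of Hoxa13 in the RefSeq order. Which genes lie in the gap or in either stretch was not determined. Whether the posterior stretch lies within the cluster or beside it was therefore not determined either.

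HoxB, from Hoxb13 to Hoxb1, had a posterior H3K27me3 interval at chromosome 11 from 96030401 to 96065399 (34999 bp), 54.3% under EZH2. The EZH2 intervals spanned 96030601 to 96043399 (12799 bp), 96054001 to 96057799 (3799 bp) and 96063001 to 96065399 (2399 bp), with gaps of 10601 and 5201 bp that lay wholly inside that H3K27me3 interval. After 46801 bp without H3K27me3 came a small interval from 96112201 to 96113399 (1199 bp), and after another 18601 bp one from 96132001 to 96137599 (5599 bp). Neither overlapped EZH2 or FLAG. They were the only intervals of any list in HoxB beyond 65.4 kb from the posterior edge, and the only H3K27me3 intervals without EZH2 in the 4 windows. HoxB alone among the clusters has no EZH2 in the middle part of its window.

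All 16 EZH2 intervals of the clusters overlapped H3K27me3, where 95.2% of the whole list did, and 5 of 7 H3K27me3 intervals overlapped EZH2, where 71.7% of the whole list did. Both counts are near the shares of the lists and single out nothing. The H3K27me3 intervals were wide, with a median of 32799 bp (1199 to 66799 bp) against 4599 bp in the list, while EZH2 intervals had a median of 6199 bp (2399 to 22199 bp) against 5199 bp. The number of EZH2 intervals under 1 H3K27me3 interval was also counted. Of 807 H3K27me3 intervals with EZH2, 764 held 1 EZH2 interval, 37 held 2, 5 held 3 and 1 held 6. Those with 3 or more make up 0.743%, and 4 of these 6 were in the Hox clusters, 1 in each, with the 6 of HoxC the highest number. All 6 were wide, from 31799 to 66799 bp. Only 17 of the 807 were at least as wide as the 32799 bp interval of HoxA. A wide interval has room for more EZH2 intervals, so the share of 0.743% is not matched for width and the count is not read as a Hox trait. No test was made of this count, which also depends on how each list joined neighbouring peaks, and 8 of the 28 EZH2 gaps of at most 5 kb in the list were in HoxC, HoxD and HoxA.

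**Figure D3:**
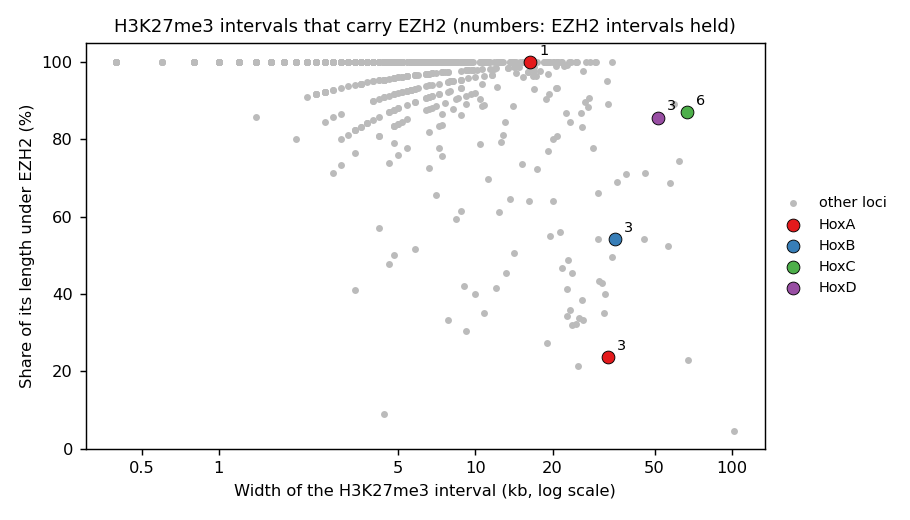
Each H3K27me3 interval that carries EZH2, by its width in kb (x axis, log scale) and the percentage of its length under EZH2 (y axis); grey points are loci outside the clusters, and the number beside a Hox point counts the EZH2 intervals it holds. HoxC and HoxD lie at 87.1% and 85.7%, HoxB at 54.3%, and HoxA has a point at 100% and another at 23.8%.

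The share of H3K27me3 under EZH2 was higher in HoxC (87.1%) and HoxD (85.7%) than in HoxA (49.2%) and HoxB (45.5%). HoxA was not uniform, with 1 interval at 100% and another at 23.8%. Over the 67 H3K27me3 intervals wider than 20 kb with EZH2, the median share was 83.1% (interquartile range 46.1% to 99.1%). The HoxC and HoxD intervals lay just above this median, and the HoxB interval lay below it but inside the interquartile range. The wider HoxA interval lay below that interquartile range, and 0.496% of all 807 intervals had a lower share. Outer edges nonetheless matched in most cases. Of the 10 outer edges of the 5 Hox H3K27me3 intervals with EZH2, 9 lay within 1 kb of the EZH2 edge, where 87.1% of the 1614 edges of the list did. The exception was the anterior edge in HoxA, where H3K27me3 reached 14400 bp past the last EZH2 interval towards Hoxa2. In the list 25 edges, or 1.55%, reached more than 5 kb beyond EZH2.

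FLAG was listed at 2 of the 16 EZH2 intervals (12.5%, 1.55 to 38.3%), where 45.5% of the whole EZH2 list had FLAG. With EZH2 gaps of at most 5 kb joined, FLAG was at 2 of 8 Hox stretches (25%), beside 46.6% of 874 in the list, since the 6 intervals of HoxC then count as 1. The intervals with FLAG were the most posterior EZH2 interval in the HoxA window and the most posterior one in the HoxD window. Whether they lie over Hox genes or over the neighbouring Evx genes was not determined. Width matters for this count, because no EZH2 interval under 3599 bp in the list had FLAG and 6 of the Hox intervals were narrower. Of the 10 at least that wide, 2 had FLAG (20%, 2.52 to 55.6%), beside 61.5% of 667 in the list. At the list median of 5199 bp or more, 2 of 9 had FLAG (22.2%, 2.81 to 60.0%), beside 80.8% of 459. At 10 kb or more, 2 of 7 had FLAG (28.6%, 3.67 to 71.0%), beside 87.3% of 150. The Hox share was thus below that of the list in each class of width. The classes are nested and hold the same 2 Hox intervals with FLAG, so they are not separate observations. No test was made of the difference, and the 7 wide intervals come from only 4 loci. With gaps of at most 5 kb joined, the Hox stretches of at least 10 kb were 1 per cluster. Those of HoxA (17599 bp) and HoxD (51399 bp) had FLAG, and those of HoxB (12799 bp) and HoxC (67799 bp) did not. The share of the list for joined stretches of that width was not computed.

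The wide EZH2 intervals without FLAG were the 12799 bp interval of HoxB, the intervals of 12599, 13799 and 16999 bp in HoxC and the 19999 bp interval of HoxD. These 5 are part of 19 EZH2 intervals of at least 10 kb without FLAG in the whole list. Of the 7 H3K27me3 intervals, 2 had FLAG, beside 36.1% of the list. Of the 67 H3K27me3 intervals wider than 20 kb with EZH2, 86.6% had FLAG. Of the 4 in the Hox clusters only that of HoxD did, and the intervals of HoxA, HoxB and HoxC are 3 of the 9 that did not. The nearest FLAG interval outside the window lay 619 kb from the HoxB window and 1996 kb from the HoxC window. The threshold behind the FLAG list is not stated, so the lack of an interval is not a lack of EZHIP.

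**Figure D4:**
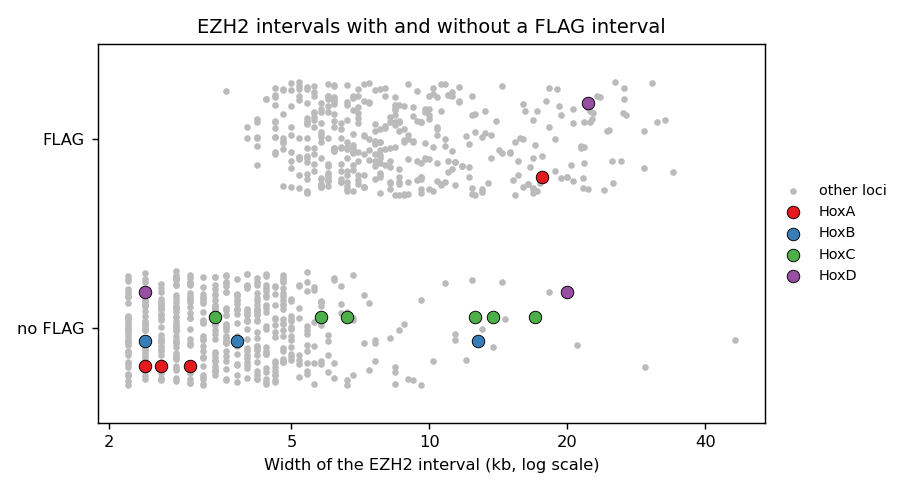
Width in kb (x axis, log scale) of each EZH2 interval with FLAG (upper row) and without FLAG (lower row); grey points are loci outside the clusters, spread vertically at random for visibility, and coloured points are the 16 Hox intervals. HoxA and HoxD each have 1 point in the upper row, and 5 Hox points of 10 kb or more are in the lower row.

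Both FLAG intervals lay inside EZH2 intervals and under H3K27me3, as 96.6% and 98.6% of the FLAG list overlapped these marks. In HoxA, FLAG at chromosome 6 from 52263201 to 52269199 (5999 bp) left 5400 bp of EZH2 on the posterior side and 6200 bp on the anterior side. In HoxD, FLAG at chromosome 2 from 74492801 to 74497799 (4999 bp) left 6600 bp on the posterior and 10600 bp on the anterior side. The median margin over 399 pairs of 1 EZH2 and 1 FLAG interval was 1800 bp. EZH2 was 2.93 times as wide as FLAG in HoxA and 4.44 times in HoxD, beside a median of 1.92 over the pairs. FLAG covered 34.1% of that EZH2 interval in HoxA and 22.5% in HoxD, and of all EZH2 length in the 4 clusters it covered 7.41%, beside 34.9% in the whole list. HoxA and HoxD are the clusters whose posterior neighbour is an Evx gene, while Hoxb13 neighbours Ttll6 and Hoxc13 neighbours Calcoco1. Whether the FLAG intervals lie over the Evx genes or over the group 13 genes was not determined.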

How the data were processed

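Bowtie 1.0.0, deepTools and build mm9 are named in the submitters' processing notes, whereas the caller, its settings and a control are not given. Per the labels' protocols, chromatin was digested with micrococcal nuclease to mono-nucleosomes. The authors' deposited lists, 1 per library, give start and end in bp on a grid of 200 bp, which limits the edges, and printed starts count from 1. Depth is unknown.

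The windows, members and gene lists were chosen with earlier results of these data known. Intervals overlapping a window by at least 1 bp were counted, and lengths are unions of bp. No test was made, as each antibody has 1 library. All intervals in the windows are named. Gene order came from a RefSeq table of GRCm38.p6 and no coordinate was taken from it. Lists of Hox cofactors and Polycomb genes were not used, since they need annotation of mm9. Interval arithmetic was tested on simulated data. Python 3.11.15, scipy 1.17.1 and pandas 2.3.3 were used.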

Additional observations from a re-analysis of the deposited data

How the results depend on the processing

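Of 190 values recomputed under alternatives, 165 stayed within set limits (lengths within 200 bp, counts within 1.5 times, shares within their interval). These limits are wide for small counts, and the FLAG share of 25% after joining, beside 12.5%, is among the 165. Some values could not change. The interval closest to a window edge lay 25.4 kb from it, so narrowing by 20 kb removed none, and width filters cannot alter a FLAG length of 0 bp. Without intervals up to the lower quartile of width, EZH2 covered 17599 bp in HoxA (1 interval left), 16598 bp in HoxB, 55795 bp in HoxC and 42198 bp in HoxD. H3K27me3 under EZH2 became 33.3% in HoxA, 40.9% in HoxB, 82.0% in HoxC and 81.0% in HoxD, the longest EZH2 gap 6001 bp in HoxC and 9201 bp in HoxD, and the longest H3K27me3 gap in HoxB 66601 bp. HoxB H3K27me3 fell to 40598 bp with this filter and also without intervals under 2199 bp, when 46.8% of it lay under EZH2. Taking EZH2 and H3K27me3 together, the longest gap was 40201 bp in HoxA and 46801 bp in HoxB. Joining gaps of at most 5 kb left 1 EZH2 interval each in HoxC and HoxD. The most anterior part held 4.45% of EZH2 and 6.11% of H3K27me3 with windows in 2 parts, and 28.9% and 36.5% with the stretch from the first to the last interval in 3 parts, which leaves out the empty anterior side by construction. With windows extended by 50 kb or narrowed by 20 kb, covered lengths, counts, shares, gaps and the empty most anterior part (0%) stayed within these limits; for gaps, for the anterior part and, with narrowed windows, for counts of intervals and of FLAG, this was added after seeing the data. No paired analysis was possible because each group has 1 library. Lists without scores allow no stricter threshold.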

Other observations

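With EZH2 gaps of at most 5 kb joined, the HoxC stretch of 67799 bp was the widest of 874 EZH2 stretches and the HoxD stretch of 51399 bp was the third. In the same joined list, 44 of 48 stretches of at least 20 kb, or 91.7%, overlapped FLAG. The HoxD stretch did, through its most posterior part, and the HoxC stretch did not. The other joined Hox stretches were narrower, with 17599, 7599 and 2599 bp in HoxA and 12799, 3799 and 2399 bp in HoxB.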
